A study of Sus scrofa with 23 samples.

Results

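Interferon beta and 4 proteins that carry or restrain its signal were followed on 23 microarrays of pig bone marrow-derived macrophages. The genes are IFNB1, STAT2, IRF9, IRF8 and USP18. They were taken by name from the platform annotation, and each had 1 probe set, which makes 5 of the 6765 genes that the annotation names. Macrophages were grown from the bone marrow of 3 largeWhite x Landrace F1 pigs with rhCSF1, the macrophage growth factor. They were exposed to 100 ng/ml of Salmonella lipopolysaccharide (LPS), a bacterial cell wall component. The labels give 6 arrays each for cells at 2 h and 7 h of LPS, 5 for 24 h and 6 for unstimulated cells at 0 h. All cells carried the same growth factor treatment, every pig was to supply every time, and each culture had a duplicate except 1 of pig 3 at 24 h. Values are log2 intensities made from the authors' RMA output, so a difference of 1 is a doubling of brightness.

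Interferon beta is a secreted cytokine that macrophages make when toll-like receptor 4 senses LPS and signals through the adaptors TICAM2 and TICAM1 to the kinase TBK1 and the transcription factor IRF3. It acts on the receptor IFNAR1 and IFNAR2 of the same and neighbouring cells. The receptor's kinases JAK1 and TYK2 then activate STAT2, which acts together with IRF9 to switch on interferon-stimulated genes. USP18 is such a target. It removes the ubiquitin-like protein ISG15 from other proteins and also damps signalling at the receptor. IRF8 is a transcription factor of the myeloid lineage that interferon gamma is best known to induce and that takes part in macrophage and dendritic cell development.

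The labels of these arrays could not be relied on, and this bears on everything given by time or pig. EIF1AY, a gene on the Y chromosome, had a log2 intensity of 8.16 to 9.45 on 15 arrays and of 3.60 to 4.08 on the other 8. The labels make pigs 1 and 3 male and pig 2 female, and 8 of the 23 arrays had the EIF1AY level of the other sex. The most similar array, found over all probe sets but those of the 5 genes, was the labelled duplicate culture for 0 of 22 arrays that have one. Instead, 11 pairs of neighbours in the deposited table were each other's most similar array, with correlations over probe sets of 0.995 to 0.998. All 11 pairs shared a labelled pig and 0 shared a labelled time. In the table the labels run by pig, then culture, then time. When the same pig and sex labels were laid along the table by time, then pig, then culture, the EIF1AY level matched on 23 of 23 arrays. In that order the labelled 24 h, the only time with 5 arrays, takes places 19 to 23. EIF1AY cannot tell the times with 6 arrays each apart, and no time was taken from an array's place. The values are therefore given first by place in the table, numbered 1 to 23, with no time attached and no test, and then by label. Nothing here measures an effect of LPS or its absence.

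Marker genes were checked on all arrays. Macrophage markers were present, with AIF1 at 12.62 to 13.36, CD86 at 9.58 to 11.63, CD14 at 7.14 to 10.998 and CD163 at 7.85 to 11.36, while ITGAM (4.39 to 5.03) and MARCO (5.58 to 6.15) stayed low. CSF1R, CD68 and LYZ were not analysed here. The T cell receptor complex genes CD3D, CD3E and CD3G lay between 4.13 and 6.31. CD2, another gene of that list, in contrast ran from 5.18 to 10.45. The 4 measured dendritic cell markers, XCR1, TCF4, SPIB and LAMP5, lay between 3.75 and 7.23. Granulocyte and precursor markers varied between arrays: the mean of the 5 measured genes ran from 7.14 to 9.55 per array, and all 5 spanned at least 2 log2 units. They differed between the stretches of the table used below, in both directions. S100A9 lay between 13.56 and 13.73 at places 19 to 23 and at or below 12.07 elsewhere, and LTF had a median of 7.65 there, with 5.05, 5.03 and 5.37 in the 3 stretches before, whereas ELANE was lower at places 19 to 23 (5.06 to 5.99) than on the other arrays. The T cell marker CD2 had medians of 5.51, 6.14, 7.90 and 9.20 over places 1 to 6, 7 to 12, 13 to 18 and 19 to 23. Of 2 measured B and plasma cell markers, CD79B lay between 4.10 and 4.51 and JCHAIN between 7.06 and 9.23. Of 4 stromal markers, LUM and DCN spanned 6.15 and 4.29, and the mean of the 4 ran from 5.43 to 7.93. Their part in the values below was not tested. In cultures such as these, fewer cells of a type and less RNA per cell cannot be told apart.

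IFNB1, the secreted ligand, had the widest range of the 5 genes, 5.81 log2 units. It lay between 3.27 and 3.75 on the arrays at places 1 to 6 and between 7.51 and 9.08 at places 7 to 12. At places 13 to 18 it ran from 6.11 to 8.60, and at places 19 to 23 from 3.54 to 8.25. The level at places 1 to 6 did not overlap that at places 7 to 18. Its highest value stood at place 11 and its lowest at place 3. The low values lie where IFNG (3.36 to 4.10) and the T cell gene CD4 (3.68 to 4.42) stay on all arrays, and the files give no detection call, so no fold is given and the range is a lower limit. Only 0.576% of the 6765 genes had a wider range, and the median gene spanned 0.96 log2 units.

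The later stretches of the table were split for IFNB1. At places 13, 14, 17 and 18 it was 6.11, 6.25, 6.32 and 6.20, and at places 15 and 16 it was 8.60 and 8.47. At places 19, 20 and 23 it was 3.66, 3.54 and 4.03, at or just above the level at places 1 to 6, and at places 21 and 22 it was 8.25 and 7.99. The high arrays of both stretches, at places 15, 16, 21 and 22, were among the 8 with low EIF1AY.

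USP18, the interferon-induced protease that removes ISG15, spanned 5.25 log2 units or 38.1-fold, and 0.828% of genes spanned more. It lay between 7.50 and 8.60 at places 1 to 6. At places 7 and 8, where IFNB1 stood at 8.74 and 8.21, USP18 was 8.56 and 8.30. That was within its range at places 1 to 6 only through place 2 (8.60). At places 9 to 12 it was 11.05, 10.72, 11.75 and 11.53. It lay between 12.37 and 12.63 at places 13 to 18 and between 11.20 and 12.75 at places 19 to 23, so all 15 arrays from place 9 on stood at least 2 log2 units above the highest of the other 8.

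STAT2, the transcription factor that the receptor's kinases activate, spanned 2.90 log2 units or 7.46-fold, and 5.60% of genes spanned more. It lay between 7.51 and 7.84 at places 1 to 6 and between 7.63 and 9.18 at places 7 to 12, where places 7 and 8 had 7.72 and 7.63. At places 13 to 18 it was between 10.04 and 10.41, above every other array. At places 19 to 23 it was 8.55, 8.65, 9.82, 9.82 and 9.42. The lowest of those 5 arrays stood above all of places 1 to 6.

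IRF9, the DNA-binding partner of STAT2, had the narrowest range, 1.70 log2 units or 3.26-fold, and 18.7% of genes spanned more. It lay between 7.57 and 7.88 at places 1 to 6, and was 7.97 and 7.78 at places 7 and 8. At places 9 to 12 it was 8.56, 8.54, 9.08 and 8.96. It lay between 8.78 and 9.27 at places 13 to 18 and between 9.01 and 9.24 at places 19 to 23, and these stretches overlapped. Unlike IFNB1, IRF9 had no array after place 8 below 8.54.

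IRF8, the myeloid transcription factor, spanned 3.96 log2 units or 15.5-fold, and 2.34% of genes spanned more. It lay between 8.48 and 8.81 at places 1 to 6. At places 7 to 10 it was between 10.11 and 10.43, and at places 11 and 12 it was 12.44 and 12.37, the highest of all arrays. At places 13 to 18 it ran from 9.44 to 11.05, with 9.44 and 9.54 at places 15 and 16 and 11.05 and 11.04 at places 17 and 18. At places 19 to 23 it was between 8.81 and 9.07, a range that overlapped that at places 1 to 6 only through place 19. The arrays at places 20 to 23 lay above all of places 1 to 6. The arrays at places 21 and 22 had IRF8 at 9.07 and 8.98 while IFNB1 there was 8.25 and 7.99.

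**Figure D1:**
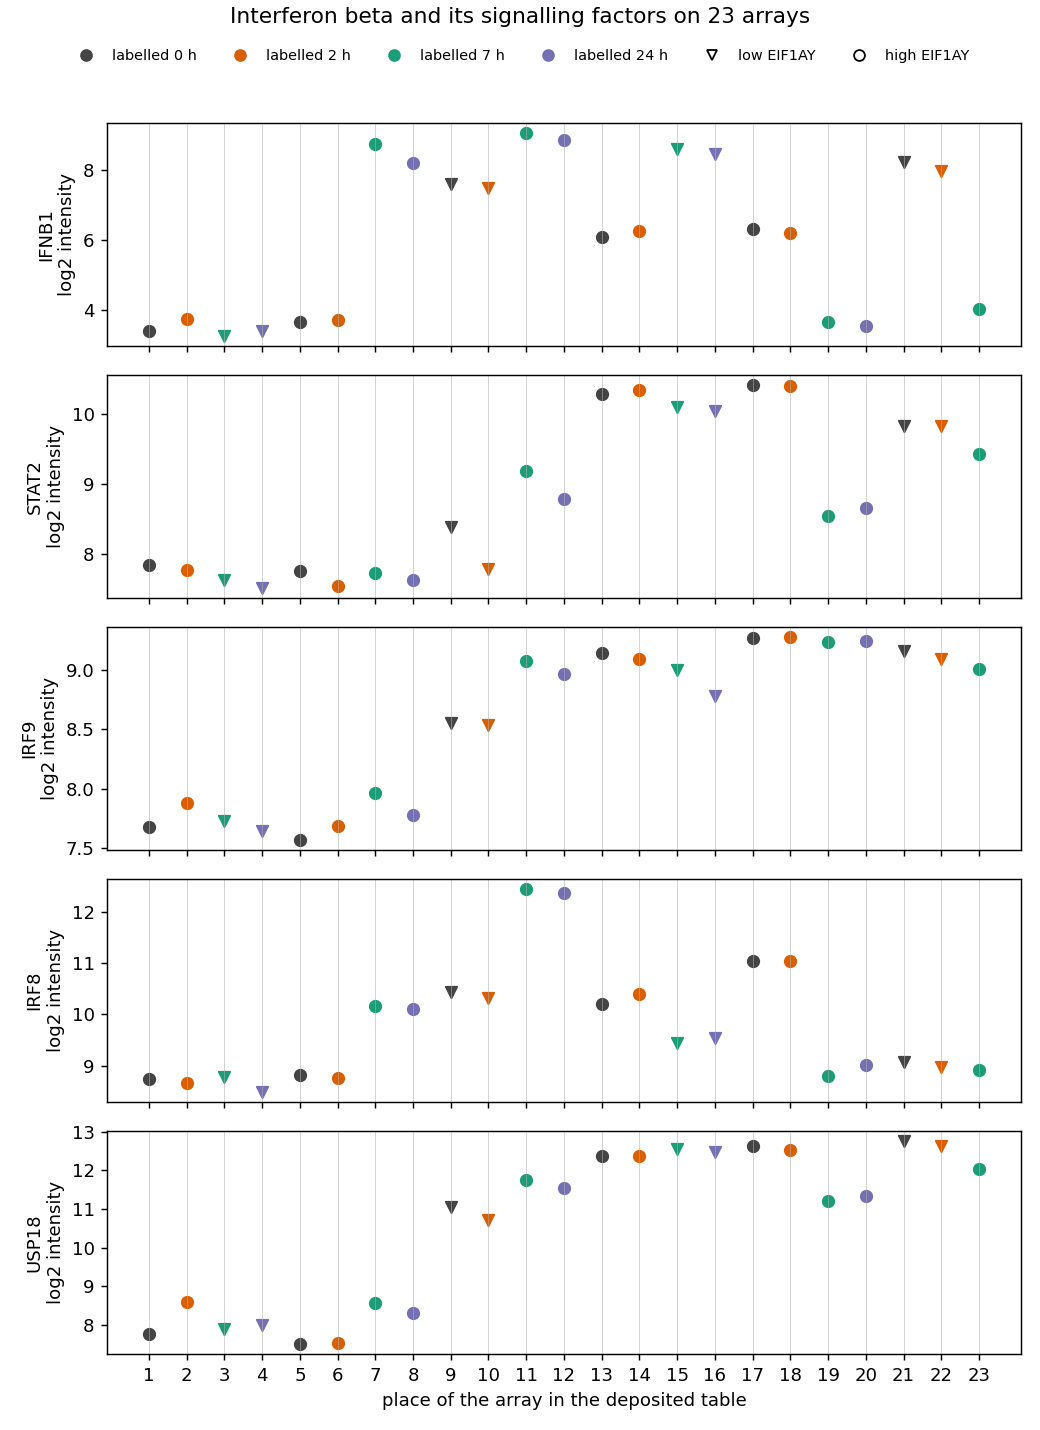
Log2 intensity of IFNB1, STAT2, IRF9, IRF8 and USP18 (vertical axes) on each of 23 arrays by place in the deposited table (horizontal axis). Colour gives the labelled time and shape the EIF1AY level, low on 8 arrays and high on 15; IFNB1 lay at or below 3.75 at places 1 to 6, and USP18 was above 10.7 from place 9 on.

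The level of EIF1AY, which marks the animal's sex and took no part in choosing the genes, was set beside them as a description. At places 1 to 6, IFNB1 was 3.27 and 3.41 on the low-EIF1AY arrays and 3.40 to 3.75 on the 4 high ones. At places 7 to 12 it was 7.62 and 7.51 on the low-EIF1AY arrays, below the 8.21 to 9.08 of the 4 high ones. At places 13 to 18 the order was the other way, with 8.60 and 8.47 on the low-EIF1AY arrays and 6.11 to 6.32 on the high ones. At places 19 to 23 it was 8.25 and 7.99 on the low-EIF1AY arrays and 3.54 to 4.03 on the 3 high ones. The low-EIF1AY arrays had IFNB1 above 7.5 in all 3 stretches after place 6.

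The split was not the same for the other genes. USP18 at places 13 to 18 was 12.56 and 12.47 on the low-EIF1AY arrays and 12.37 to 12.63 on the high ones, which overlap. At places 19 to 23 it was 12.75 and 12.64 on the low-EIF1AY arrays and 11.20 to 12.04 on the high ones, the same direction as IFNB1 without overlap. STAT2 at places 19 to 23 was likewise higher on the low-EIF1AY arrays, at 9.82 on both, with 8.55 to 9.42 on the high ones, but at places 13 to 18 it was lower on them, at 10.04 and 10.09, with 10.29 to 10.41 on the high ones. IRF8 at places 13 to 18 was 9.44 and 9.54 on the low-EIF1AY arrays and 10.21 to 11.05 on the high ones, the reverse of IFNB1. By the sex labels the low-EIF1AY arrays would come from 1 pig, so the split is a difference between single animals at most.

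Differences within the 11 pairs of most similar arrays show how closely each gene's values match between arrays that are alike elsewhere. By the labels the pairs are not repeats, since they join 0 h with 2 h or 7 h with 24 h of 1 culture. With the labels laid by time, then pig, then culture, which matched EIF1AY on 23 of 23 arrays, they would be duplicate cultures. They were picked for similarity over other probe sets, so their differences are a low guide to error. The median difference was 0.14 log2 units for IFNB1, 0.12 for USP18, 0.09 for STAT2, 0.08 for IRF9 and 0.09 for IRF8. The highest was 0.54 for IFNB1 at places 7 and 8, 0.83 for USP18 at places 1 and 2, 0.61 for STAT2 at places 9 and 10, 0.22 for IRF9 and 0.28 for IRF8. Each of these is smaller than the range of its gene over the 23 arrays. USP18 at places 7 and 8 lay within its range at places 1 to 6, though only through place 2, so no order is read between those arrays.

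Over the 23 arrays the members fell into looser and closer partners. Pearson's r was 0.96 between IRF9 and USP18, 0.91 between STAT2 and USP18 and 0.84 between STAT2 and IRF9. IFNB1 had r of 0.66 with IRF8, 0.51 with USP18, 0.40 with STAT2 and 0.39 with IRF9. IRF8 had r of 0.43 with both USP18 and IRF9 and 0.35 with STAT2. These values describe 23 arrays, 22 of which form pairs, that share 3 pigs and 1 normalization, and no test was made of them. The scatter of IFNB1 against USP18 shows arrays with high IFNB1 and low USP18 (places 7 and 8) and others with low IFNB1 and high USP18 (places 19, 20 and 23).

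**Figure D2:**
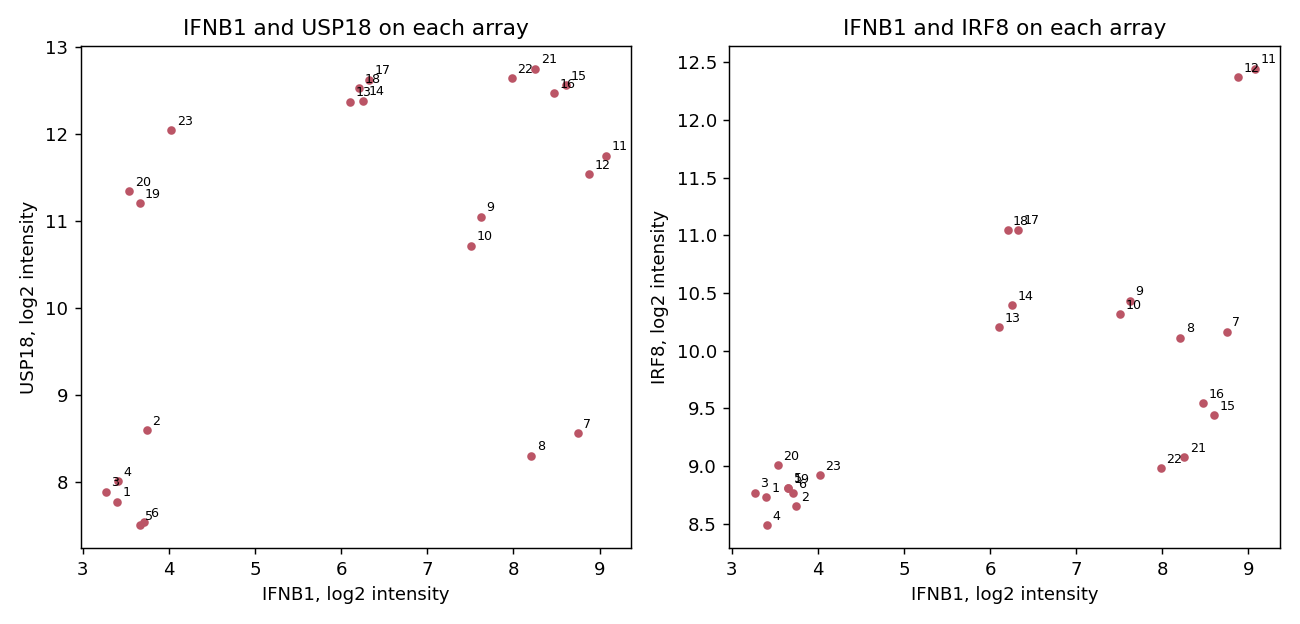
IFNB1 log2 intensity (horizontal axes) against USP18 (left) and IRF8 (right) log2 intensity; each point is 1 array, numbered by its place in the deposited table. Places 7 and 8 combine IFNB1 above 8.2 with USP18 below 8.6, and places 19, 20 and 23 combine IFNB1 at or below 4.03 with USP18 at or above 11.2.

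Genes of the same pathway outside the 5 were described from lists, of which 10 genes of interferon production, 3 ligands, 8 of receptor and signalling and 6 of feedback were measured. A range of at least 2 log2 units was found for 5 of 10, 0 of 3, 3 of 8 and 2 of 6 of them, against 897 of all 6765 genes. The median ranges were 1.84, 0.74, 1.59 and 1.73 log2 units, against 0.96 for all genes. TICAM1 and IFIH1 were not analysed here. The genes named next have the widest ranges of their lists, except IFNAR1, JAK1 and TYK2, which were added for their role after their values were seen.

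Among genes of interferon production, IRF1, a transcription factor induced by interferons and by inflammatory signals, lay between 8.24 and 9.43 at places 1 to 6. It lay between 12.85 and 13.35 at places 7 to 12, between 11.80 and 12.31 at places 13 to 18 and between 10.44 and 11.47 at places 19 to 23, 4 stretches that did not overlap. IRF7, which amplifies the production of type I interferon, was between 7.78 and 8.03 at places 1 to 6 and between 7.82 and 10.26 at places 7 to 12. It then stood between 10.81 and 11.45 at places 13 to 18 and between 10.51 and 11.85 at places 19 to 23. DDX58, the sensor of viral RNA also called RIG-I, ran from 7.08 to 7.92, from 8.88 to 12.14, from 12.86 to 13.24 and from 10.11 to 12.39 over the same 4 stretches. CD14, the LPS co-receptor, spanned 3.86 log2 units with its highest value at place 13.

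Of the other measured interferons, IFNG and IFN-DELTA-1 spanned less than the median gene and IFNA1 spanned 1.71 log2 units. IFNG, the gene of interferon gamma, lay between 3.36 and 4.10 on all arrays, and IFN-DELTA-1 between 4.30 and 4.98. IFNA1, of the interferon alpha family whose genes are so alike that probe sets may not separate them, was 8.02 and 7.997 at places 15 and 16 and between 6.32 and 6.86 on the other arrays. Those are 2 of the low-EIF1AY arrays on which IFNB1 was high.

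Of the receptor chains, IFNAR2 spanned 2.13 log2 units and IFNAR1 1.08. IFNAR2 lay between 9.36 and 9.56 at places 1 to 6, between 11.07 and 11.49 at places 7 to 18 and between 9.74 and 10.47 at places 19 to 23, without overlap. JAK2, a kinase of the interferon gamma receptor, had its highest stretch at places 13 to 18 (up to 10.62), as had STAT3, a transcription factor of cytokine receptors (10.79 to 11.18). IRF2, an antagonist of IRF1, spanned 3.01 log2 units, and its lowest value stood at place 7 and its highest at place 18. JAK1 and TYK2, the kinases of the type I receptor, spanned 0.78 and 1.45.

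Among feedback genes, ISG15, whose protein USP18 removes from its targets, spanned 6.68 log2 units. It ran from 7.88 to 10.15 at places 1 to 6, from 12.06 to 13.75 at places 7 to 12, from 14.12 to 14.55 at places 13 to 18 and from 13.28 to 14.32 at places 19 to 23. SOCS1, an inhibitor of the Janus kinases, was between 4.07 and 4.83 at places 1 to 6 and between 7.04 and 9.72 at places 7 to 12. It stood between 8.74 and 9.12 at places 13 to 18 and between 5.70 and 8.91 at places 19 to 23. SOCS3 and the phosphatase PTPN6 spanned 1.63 and 1.83.

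**Figure D3:**
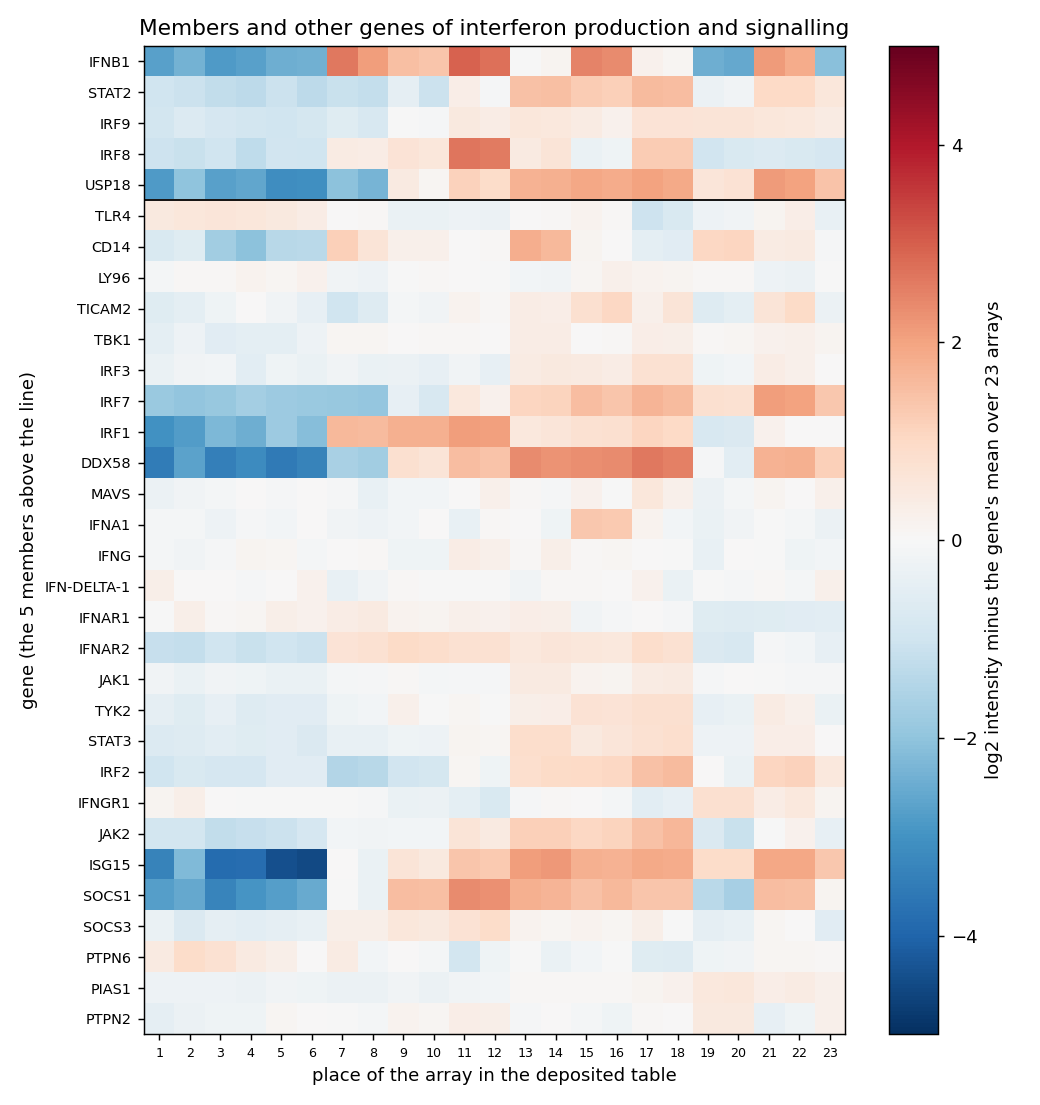
Log2 intensity minus the gene's own mean over 23 arrays (colour scale) for the 5 members, above the line, and 27 other genes of interferon production, ligands, receptor, signalling and feedback (rows), by place of the array in the deposited table (horizontal axis). IFNB1, IRF8, USP18, IRF1, DDX58, ISG15, SOCS1 and IFNAR2 are among the genes above their means at places 9 to 12, and STAT2 and JAK2 stand highest at places 13 to 18.

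The genes most like each member over the 23 arrays were found by Pearson's r, with no labels. IFNB1 was most like the chemokine CCL4 (r = 0.95), the cytokine TNF (0.94), the chemokine CCL3L1 (0.94), CITED2, a transcriptional co-regulator (0.91), and SERPINB2, an inhibitor of plasminogen activators (0.91). STAT2 was most like WARS, the tryptophan tRNA ligase (0.98), LOC733579 (0.98), CMTR1, an RNA cap methyltransferase (0.98), SP110, a nuclear body protein (0.98), and PDGFRL (0.98). IRF9 was most like the chemokine CXCL9 (0.96), the pyrophosphatase PPA1 (0.95), the activin receptor ACVR1 (0.95) and the antiviral genes RSAD2 (0.95) and MX1 (0.95). USP18 was most like TNFSF10, the death ligand TRAIL (0.99), MX1 (0.99), RSAD2 (0.98), EIF2AK2, the RNA-activated kinase PKR (0.98), and MORC3 (0.98). IRF8 had the lowest values, with the transcription factor GTF2B (0.92), GRAMD2B (0.89), SYS1 (0.88), LNPK (0.88) and the adhesion molecule CD58 (0.87).

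By labelled time, 0 of the 5 genes passed the limma test at any of the 3 later times against 0 h, and 0 had an unadjusted p under 0.05. Every labelled 0 h array formed a most similar pair with a labelled 2 h array. The 2 h contrast therefore compares arrays that are alike throughout, and its outcome says nothing of time. IFNB1 averaged 5.90 ± 1.88 at the labelled 2 h, 6.23 ± 2.51 at 7 h and 6.01 ± 2.57 at 24 h, against 5.89 ± 2.06 at 0 h (SD of the means of 3 labelled pigs). Its differences from 0 h were 0.01, 0.34 and 0.11, each with an SE of 1.28 and an adjusted p of 1, 0.993 and 0.99 by limma. Their 95% intervals ran from -2.91 to 2.93 at 2 h and from -2.59 to 3.26 at 7 h. At 24 h the interval ran from -2.81 to 3.03. All rest on a spread shared by all labelled times, and so hold changes of several fold up or down. As the time labels could not be relied on, the 7 h and 24 h intervals set no bound on a change with time either. The 2 h interval does not measure the spread of the 2 h difference alone, which ranged from -0.0873 to 0.11 when 1 labelled pig was left out. When 1 labelled pig was left out, the 7 h difference ranged from -0.733 to 2.23 and the 24 h difference from -0.969 to 2.04, the highest of each without pig 3 (adjusted p of 0.0725 and 0.12 by limma). Without the 8 arrays that went against their sex these differences were 1.24 and 0.915, with an adjusted p of 0.999 and 1. The labelled times overlap over most of their spread, because arrays with low and with high IFNB1 stand under each of them. IFNB1 ran from 3.40 to 8.25 at the labelled 0 h and from 3.72 to 7.99 at 2 h. It ran from 3.27 to 9.08 at 7 h and from 3.41 to 8.87 at 24 h.

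USP18 averaged 10.73 ± 2.37 at the labelled 2 h, 10.67 ± 2.13 at 7 h and 10.50 ± 2.06 at 24 h, against 10.68 ± 2.68 at 0 h (SD, 3 labelled pigs). STAT2 had the difference with the lowest adjusted p, with 8.54 ± 0.92 at 24 h against 9.08 ± 1.18 at 0 h, a difference of -0.54 with an SE of 0.34 and an adjusted p of 0.914 by limma. IRF9 and IRF8 differed from 0 h by 0.03 to 0.11 and by -0.03 to 0.04 over the 3 times. Within labelled pigs, STAT2 was higher at 2 h than at 0 h in 0 of 3 and IRF9 was higher at 24 h than at 0 h in 3 of 3, with adjusted p of 1 and 0.928 by limma. The 2 h count for STAT2 compares the arrays of most similar pairs. Over all probe sets, 0.0125% were called at 2 h, 0% at 7 h and 0.00417% at 24 h against 0 h by limma. That is 3, 0 and 1 of 23999, with 521, 754 and 986 at an unadjusted p under 0.05. Without the 8 arrays that went against their sex, 0 of the 5 genes passed. That run kept the labelled times, and its arrays still formed most similar pairs whose members differ in labelled time. It is therefore no separate check on time. Of the 27 other pathway genes, 0 passed in either direction at any labelled time.

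**Figure D4:**
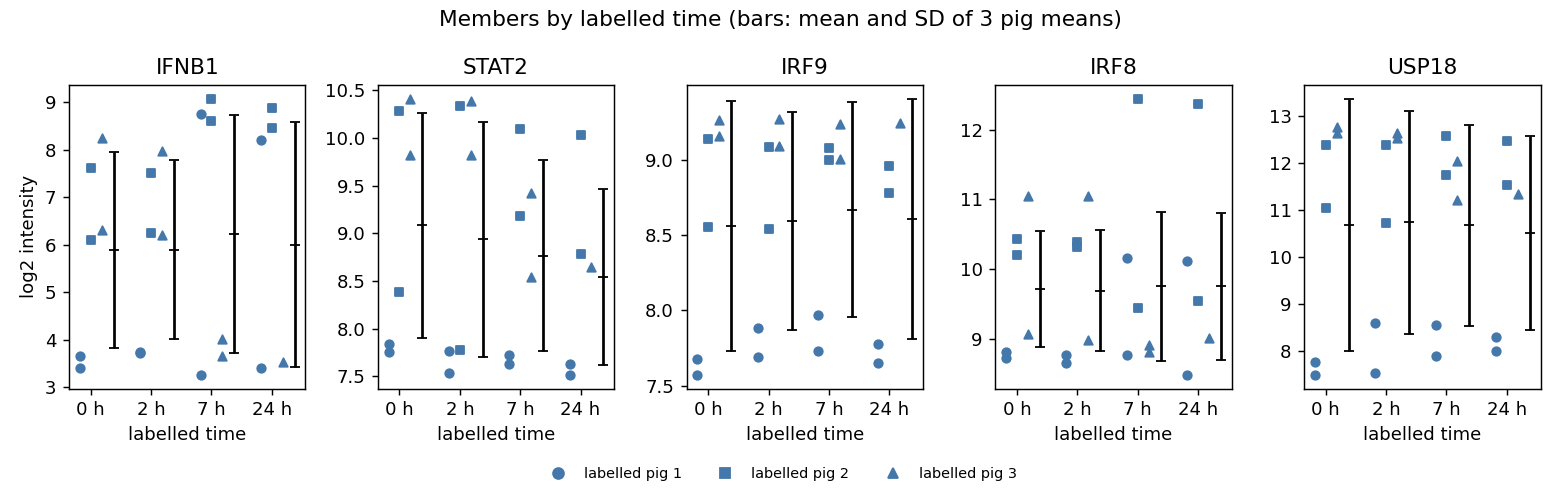
Log2 intensity (vertical axes) of the 5 genes by labelled time (horizontal axes); each point is 1 array, its shape gives the labelled pig, and bars give the mean and SD of the 3 pig means. Each labelled time holds arrays with low and arrays with high IFNB1 and USP18.

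By labelled pig, 5 of 5 genes passed the limma F test, where 41.8% of all probe sets did. IFNB1 averaged 4.77 ± 2.30 (SD, n = 8 arrays) under pig 1, 7.81 ± 1.15 (n = 8) under pig 2 and 5.71 ± 2.00 (n = 7) under pig 3, with an adjusted p of 0.0356 by limma. STAT2 averaged 7.67, 9.36 and 9.58 (adjusted p = 0.000539) and IRF8 9.06, 10.64 and 9.55 (adjusted p = 0.0356) in the same order of pigs. Arrays entered the F test as independent units, which makes the p-values too low. With the arrays of a most similar pair averaged to 1 unit and no time term, 3 of 5 and 17.9% of probe sets passed. IFNB1 and IRF8 then had adjusted p of 0.198 and 0.194 by limma. Averaging the pairs and dropping the time term were not run apart. Without the 8 arrays that went against their sex, 2 of 5 passed, IRF9 and USP18, where 17.9% of probe sets did. Without the arrays labelled pig 1, 0 of 5 and 9.77% of probe sets passed, and without those labelled pig 2, 3 of 5 and 34.1%. Without those labelled pig 3, 5 of 5 and 28.5% passed. The arrays labelled pig 1 are those at places 1 to 8, and each labelled pig holds both EIF1AY levels, so a difference under these labels is one between sets of arrays, not between pigs.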

How the data were processed

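RNA was hybridized to Affymetrix porcine arrays. The authors deposited probe set intensity values, RMA output on a linear scale; affy and RMA are named, without versions, in the submitters' processing notes. RMA corrects background and equalizes arrays, which compresses low intensities. Array medians ran from 69.5 to 73.9. Values were taken to log2 without further normalization, and 124 control probe sets of 24123 were dropped. A single gene was annotated to 10069 of the others, several genes to 198 and none to 13732. Symbols follow RefSeq's Sscrofa11.1 table by gene ID. The probe set with the highest mean stood for a gene.

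Groups are those of the labels. The rule that defined these genes also proposed times from an inferred order of the table, which was not used to assign any sample. The 12 pig-by-time means were fitted with limma 3.58.1 in R 4.3.3 on labelled time plus labelled pig, adjusted over 23999 probe sets by Benjamini-Hochberg at 0.05. Pig was a block because the series text gives the same animals at every time. Within a labelled pig, deviations from the means of the times correlated at 0.865 to 0.969 between 2 h and 0 h. They correlated at 0.27 to 0.783 between 7 h or 24 h and 0 h. The labelled 0 h and 2 h arrays form most similar pairs, so their higher values do not bear on the choice of block. Labelled pigs were compared by an F test on 23 arrays with time as a term. The alternative on averaged pairs had no time term. Named genes were the members, the 4 widest-ranging genes per list and the 5 most correlated with each member. Members and lists were chosen with earlier results of these data known. Alternatives covered the pig term, left-out pigs, single cultures, arrays against their sex, renormalization, dim probe sets and averaged pairs.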

Additional observations from a re-analysis of the deposited data

How the results depend on the processing

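None of the 5 genes passed the test of labelled time under any alternative run, and the lowest adjusted p for any of them was 0.0725. Every alternative used the labelled times and so could not repair them. Of 117 differences of single genes recomputed, 92 kept their direction and 25 turned it, all of them differences that passed no test. Without the pig term, the paired design's replicate block, 2 probe sets in place of 1 were called at 24 h against 0 h, and the members' calls stayed at 0. Over all probe sets the calls at 2 h were 0 without any single pig, with the first culture only, without the arrays against their labelled sex and with quantile normalization again, against 3. At 24 h they were 0 without any single pig, with the first culture only and with quantile normalization again, and 3 when arrays of the other sex level were dropped, which gave 1 at 7 h. Leaving out a pig gave 2 h differences of -0.0873 to 0.11 for IFNB1, -0.0313 to 0.0648 for IRF9 and -0.133 to 0.164 for USP18. At 7 h, leaving out a pig moved IFNB1 to between -0.733 and 2.23, IRF8 to between -0.288 and 0.658, STAT2 to between -0.629 and 0.0894 and USP18 to between -0.31 and 0.518. At 24 h the ranges were -0.969 to 2.04 for IFNB1, -0.262 to 0.582 for IRF8 and -0.527 to 0.405 for USP18. With the first culture only, IFNB1 and IRF8 differed by -0.447 and -0.0642 at 7 h and by -0.507 and -0.116 at 24 h. Without the arrays against their sex the 2 h differences were -0.00968 for IFNB1 and -1.2e-05 for USP18, the 7 h differences 1.24 for IFNB1 (0.336 with all arrays), 0.067 for STAT2, -0.595 for IRF8 and 0.479 for USP18, and the 24 h differences 0.915 for IFNB1 (0.113 with all arrays), -0.528 for IRF8 and 0.268 for USP18. For labelled pigs, 3 of 5 genes passed with similar pairs averaged and no time term (4289 probe sets in place of 10025). Without the arrays against their sex 2 passed (4303). Without pig 1, pig 2 or pig 3 the counts were 0, 3 and 5 (2344, 8195 and 6833 probe sets). The cause was not tested. IFNB1 fell outside the brighter probe sets and has no value under that filter, and no gene had a second probe set to compare.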
